A study of Mus musculus with 15 samples.

Results

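Myc, Batf, Tfap4, Zbtb17 and Max encode 5 transcription factors tied to the selection of germinal centre B cells. They were taken by gene symbol from the probe annotation, with 1 probe set each, and are 5 of the 19938 genes tested. The RNA came from spleen of female mice. SwHEL B cells, whose engineered receptor binds hen egg lysozyme, carried CD45.1 and were given to C57BL/6J recipients. These recipients were immunized with sheep red blood cells that carried the lysozyme mutant HEL3x. At day 10, donor cells that were IgG1+ and CD38 low, and so belonged to the germinal centre, were sorted by zone and by affinity. The groups were light zone cells of high affinity (Lzhi, 3 arrays), light zone cells of low affinity (Lzlo, 4), dark zone cells of high affinity (Dzhi, 4) and dark zone cells of low affinity (Dzlo, 4). Light zone cells were taken as CD86 high and CXCR4 low, dark zone cells as the reverse. How affinity was read, the age of the mice and whether animals were pooled are not stated in the labels, and the recipients kept their own lymphocytes. Nothing says that the arrays of a group came from separate mice, so p-values speak only of the spread among these arrays, part of which may be technical.

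MYC drives growth and ribosome production and binds DNA, as a pair with MAX, at E-boxes. In the germinal centre Myc is switched on in light zone cells that have captured antigen and been helped by T cells, before they return to the dark zone to divide. MYC also binds MIZ1, the product of Zbtb17, and represses genes through it. TFAP4 is induced by MYC and carries on its programme of division, and binds a different E-box. BATF is an AP-1 factor that pairs with JUN proteins and binds together with IRF4, and is needed for antibody class switching.

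The E-box that MYC and MAX bind is spelled CACGTG, the one of TFAP4 CAGCTG and the AP-1 site TGANTCA, which BATF pairs also bind. These letters were searched on both strands in the 250 bases before each annotated start (RefSeq, GRCm38.p6), and no run of letters fits more than 1 of the motifs. Of 15614 tested genes with such a window, 8.11% held CACGTG, 14.49% held CAGCTG and 7.12% held TGANTCA. Of a list of textbook MYC-induced genes, 40 had a window and 22.5% of these held CACGTG. The windows of Batf, Max and Zbtb17 held none of the 3 motifs. The RefSeq entry of Max holds CACGTG across the start, beginning 3 bases before it. Shown here, because the expression of the MYC-induced list is described below, are the E-box of Max and the one nearest the start in each of 9 MYC-induced genes. Each run has 22 bases of the gene's strand, with the E-box in capitals, and all are from GRCm38.p6.
Max (chr12:76962238-76962259, minus strand): agcccggtCACGTGttaggggg
Cdk4 (chr10:127063429-127063450, plus strand): caacaggtCACGTGgccgtcag
Eif4a1 (chr11:69672599-69672620, minus strand): cgcctccgCACGTGtaaaggtg
Eif4e (chr3:138527196-138527217, plus strand): acgtccgtCACGTGggcaggag
Hspd1 (chr1:55088310-55088331, minus strand): ggctgggaCACGTGaaaaggcc
Ldha (chr7:46845748-46845769, plus strand): ccagcctaCACGTGggttcccg
Nme1 (chr11:93968277-93968298, minus strand): cggggaacCACGTGaggccggg
Nop2 (chr6:125131815-125131836, plus strand): ccctggatCACGTGtgttccgg
Ran (chr5:129020030-129020051, plus strand): ggccggccCACGTGacccgccg
Slc16a1 (chr3:104638456-104638477, plus strand): cgccgggtCACGTGgcgggaag

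Values are RMA values on the log2 scale, and array medians lay between 5.57 and 5.74. Of 16 germinal centre B cell markers 12 were measured, and their mean level was 10.3 to 10.7 on every array. Cd86, on which the sort was made, was higher in the light zone by 1.04 (adjusted p = 0.00255, limma), and Cxcr4 differed by -0.69 (adjusted p = 0.152, limma). The Cd86 difference was 1.33 between Lzhi and Dzhi and 0.75 between Lzlo and Dzlo. Its mean was 9.56 in Dzhi and 10.20 in Dzlo, with the highest Dzhi array at 9.9979 and the lowest Dzlo array at 10.0021. The zones were thus less far apart in Cd86 at low affinity. What part this had in the zone differences at each affinity was not tested. The sample descriptions carry an experiment code, merged here into 4 experiments A to D, and no Lzhi array came from D. Code B has a different form on dark zone and on light zone arrays, so zone pairs within experiment B rest on this merging. The Lzlo and Dzlo arrays of experiment D, called the outlying pair here, stood apart: the mean level of 14 neutrophil markers was 8.70 in Lzlo and 7.49 in Dzlo there, against 4.90 to 6.37 on the other arrays.

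The first question was whether the 5 genes differed between zones. Batf was the only 1 of the 5 that passed the test: it was 1.89-fold higher in light zone than in dark zone cells. Myc was on average 1.65-fold higher in the light zone and did not pass. Tfap4, Zbtb17 and Max differed by 0.09, -0.13 and 0.05 on the log2 scale and did not pass. A gene counted as passed when its adjusted p over all 19938 genes was under 0.05 (limma, Benjamini-Hochberg), and 31 genes did so between zones, or 0.155%.

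Values below run by replicate number, which stands for experiments A, B and C in Lzhi, for A, B, D and C in Lzlo and Dzlo, and for A, B, C and D in Dzhi. Batf was at 8.50, 8.28 and 8.99 in Lzhi and at 7.98, 8.03, 8.01 and 8.06 in Lzlo. It was at 7.50, 7.51, 7.83 and 6.91 in Dzhi and at 7.65, 7.24, 7.22 and 7.24 in Dzlo. All 7 light zone arrays lay above all 8 dark zone arrays, an order that 0.0802% of genes showed. The difference was 0.91 ± 0.14 on the log2 scale (SE, 95% interval 0.62 to 1.21, adjusted p = 0.015, limma), and an exact permutation test of the single gene gave p = 0.000311 (2-sided). Within the merged experiments, Batf was higher in the light zone in 7 of 7 pairs of arrays, by 0.33 to 1.16. In bulk RNA, more cells that express a gene and more RNA per cell cannot be told apart.

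The call of Batf held in each of the 15 fits that left out 1 array, with differences of 0.81 to 0.99. Without the pair of outlying arrays of experiment D the difference was 0.90 (adjusted p = 0.0481, limma), and without all of experiment D it was 0.81 (adjusted p = 0.0394). With the merged experiment code as a block it was 0.88 (adjusted p = 0.0112), and 90 genes passed in that fit. Code B is written differently for dark and light zone arrays. With the codes kept as written, the difference in Batf was 0.92 and the call was lost (adjusted p = 0.0594).

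Myc was at 9.09, 8.88 and 8.0 in Lzhi and at 8.37, 8.19, 8.30 and 8.74 in Lzlo. It was at 7.33, 8.14, 8.55 and 7.74 in Dzhi and at 7.81, 7.12, 7.73 and 8.04 in Dzlo. The zones overlapped: 3 of the 7 light zone arrays lay above the highest dark zone array, which was Dzhi of experiment C. The difference was 0.72 ± 0.21 (SE, 95% interval 0.27 to 1.18), with p = 0.00434 before and 0.422 after adjustment (limma) and p = 0.00855 in an exact permutation test (2-sided). Myc was higher in the light zone in 6 of 7 pairs within the merged experiments, by 0.56 to 1.77. The exception was the high-affinity pair of experiment C, where Lzhi was at 8.0 and Dzhi at 8.55.

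**Figure D1:**
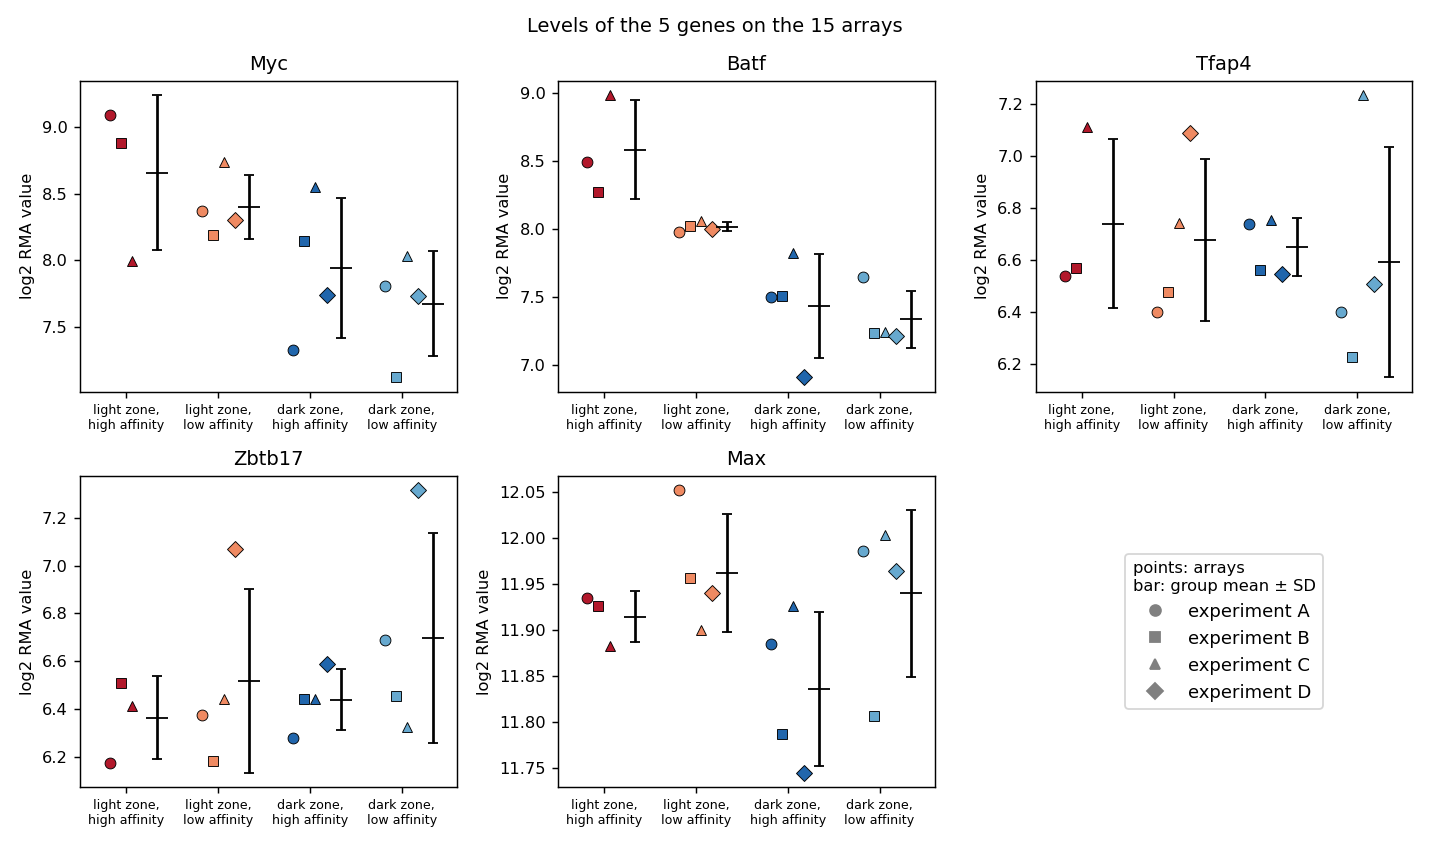
Log2 RMA value (vertical axes, a different range for each gene) of the 5 genes on the 15 arrays, by group, with the mean and SD of each group and the experiment as the marker shape. The light zone arrays of Batf start at 7.98, and its dark zone arrays reach at most 7.83. The axis of Max is narrow, and its arrays span 11.75 to 12.05.

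Tfap4 averaged 6.74 ± 0.32 in Lzhi (SD, n = 3), 6.68 ± 0.31 in Lzlo, 6.65 ± 0.11 in Dzhi and 6.59 ± 0.44 in Dzlo (n = 4 each). Its arrays ranged from 6.4 to 7.11 in the light zone and from 6.23 to 7.23 in the dark zone, and the zones overlapped almost wholly. The difference was 0.09 ± 0.16 (SE, 95% interval -0.25 to 0.43). Its sign turned without experiment D (-0.01) and with array weights (-0.04).

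Zbtb17 averaged 6.36 ± 0.17 in Lzhi (SD, n = 3), 6.52 ± 0.38 in Lzlo, 6.44 ± 0.13 in Dzhi and 6.70 ± 0.44 in Dzlo (n = 4 each). The zone difference was -0.13 ± 0.16 (SE, 95% interval -0.47 to 0.21). The 2 highest arrays were the low-affinity arrays of experiment D, with 7.07 in Lzlo and 7.31 in Dzlo, against 6.17 to 6.69 on the others. They were also the 2 arrays with the highest levels of neutrophil, myeloid and natural killer cell markers. In Lzlo and Dzlo of D the mean of 10 myeloid markers was 6.59 and 5.88. That of 9 natural killer cell markers was 6.23 and 5.40. The part of other cells in the Zbtb17 values was not tested.

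Max, the partner that MYC needs to bind DNA, was the steadiest of the 5 across arrays, with an SD of 0.08 over all 15. It averaged 11.91 ± 0.03 in Lzhi (SD, n = 3), 11.96 ± 0.06 in Lzlo, 11.84 ± 0.08 in Dzhi and 11.94 ± 0.09 in Dzlo (n = 4 each). The zone difference was 0.05 ± 0.06 (SE, 95% interval -0.08 to 0.19).

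The zone comparison was also made within each affinity. Among high-affinity cells Batf differed by 1.15 ± 0.20 (SE, adjusted p = 0.165, limma) and Myc by 0.72 ± 0.31 (adjusted p = 0.999), and 3 genes passed, or 0.015%. All Lzhi arrays lay above all Dzhi arrays for Batf, as for 1.84% of genes, and 2 of 3 did for Myc. Among low-affinity cells Batf differed by 0.68 ± 0.19 (adjusted p = 0.568) and Myc by 0.73 ± 0.29 (adjusted p = 1), and 2 genes passed, or 0.01%. There all Lzlo arrays lay above all Dzlo arrays for both genes, which 0.988% of genes showed, and the exact permutation test gave p = 0.0286 for each, the smallest that 4 arrays against 4 allow. In each of the 4 low-affinity pairs within the merged experiments both genes were higher in the light zone, Myc by 0.56 to 1.07 and Batf by 0.33 to 0.82.

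The second question was whether high affinity went with higher levels. None of the 5 genes passed in either zone, where 0 of all tested genes passed (0%). An unadjusted p under 0.05 (limma) was found for 797 genes in the light zone (4%) and 320 in the dark zone (1.6%). Neither share is above the one that this threshold gives where no gene differs. In the light zone Batf had the largest difference of the 5, 0.57 ± 0.20 (SE, 95% interval 0.13 to 1.00, adjusted p = 1, limma). Its Lzhi arrays, at 8.28 to 8.99, all lay above its Lzlo arrays, at 7.98 to 8.06. That order was shown by 2.26% of genes, and the exact permutation test gave p = 0.0286, the smallest that 3 arrays against 4 allow. Within experiments A, B and C the difference was 0.51, 0.25 and 0.92.

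For Myc the light zone difference with affinity was 0.26 ± 0.31 (SE, 95% interval -0.41 to 0.93). Within experiments A and B Lzhi was higher by 0.72 and 0.70, and within experiment C Lzhi was at 8.0 and Lzlo at 8.74. Without that Lzhi array the difference was 0.59, and without the Lzhi array of experiment A it was 0.04.

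In the dark zone Myc differed by 0.27 ± 0.29 (SE) and Batf by 0.10 ± 0.19, with pairs within experiments on both sides of 0. Batf turned to -0.03 without the Dzhi array of experiment C. Zbtb17 differed by -0.26 ± 0.21, and by -0.05 without the pair of outlying arrays of experiment D. Tfap4 differed by 0.06 ± 0.23 in the light zone and 0.06 ± 0.21 in the dark zone, and by 0.20 and 0.03 without that pair.

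Max was lower in high-affinity cells in 7 of 7 pairs within experiments and did not pass, with differences of -0.22 to -0.02. The share of all genes that kept the same direction in all 7 pairs was not counted. Over both zones the difference of Max was -0.08 ± 0.06 (SE, adjusted p = 0.999, limma), and the exact permutation test gave p = 0.0559. Over both zones 0 genes passed for affinity (0%). For the interaction of affinity and zone 0 genes also passed (0%). There Batf had 0.47 ± 0.28 (SE, limma adjusted p = 1), so a different response to affinity in the 2 zones was not shown.

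**Figure D2:**
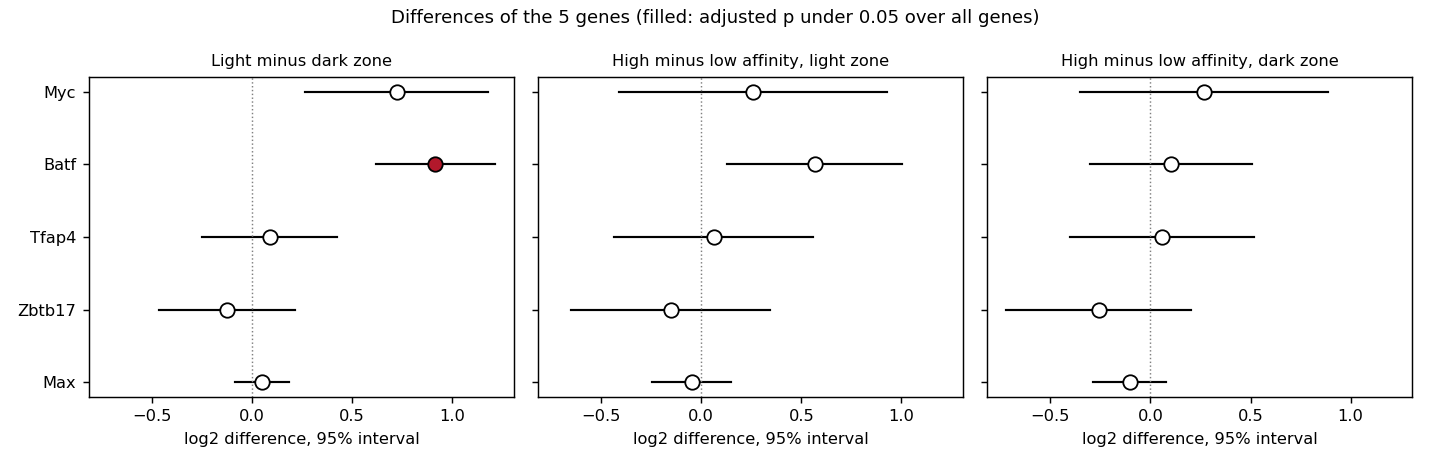
Log2 difference (horizontal axis) of each gene between zones and between affinities within each zone, as points with 95% intervals. Batf between zones, at 0.91, is the only filled point, which marks an adjusted p under 0.05. The intervals of Tfap4, Zbtb17 and Max include 0 in all 3 panels.

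Across the 15 arrays Myc and Batf had a Pearson r of 0.61 (permutation p = 0.0145, adjusted 0.145 over the 10 pairs of genes) and a Spearman rho of 0.74 (p = 0.00285, adjusted 0.0285). Without the 2 arrays farthest from the median of Myc, r was 0.49. Within zones r was -0.12 over 7 light zone arrays and 0.47 over 8 dark zone arrays, and on deviations from the group means it was 0.01. The Lzhi array of experiment C had the highest Batf, at 8.99, and the lowest Myc of the light zone, at 8.0. The other 9 pairs of genes had adjusted p-values of at least 0.676.

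**Figure D3:**
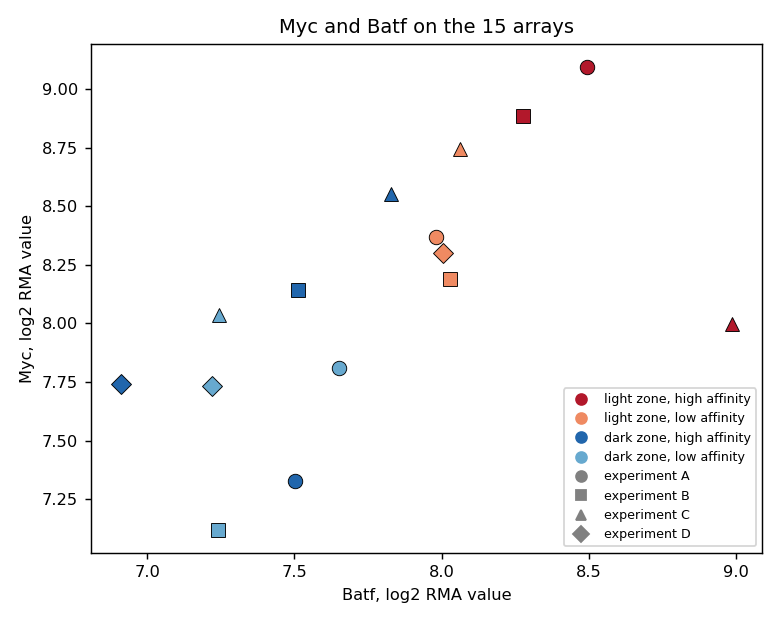
Myc (vertical axis) against Batf (horizontal axis), log2 RMA values on the 15 arrays, coloured by group. Light zone arrays lie to the upper right, and the Lzhi array of experiment C lies apart at high Batf, 8.99, and low Myc, 8.0.

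The genes most like each of the 5 were taken as the 5 with the highest Pearson r over the 15 arrays, which share zone, experiment and array quality. For Batf these were Cdca7l (0.85), Irf4 (0.85), Fdps (0.84), Psme2 (0.83) and Gstt2 (0.83). Irf4, which binds DNA together with BATF, was at 7.05, 6.44 and 7.30 in Lzhi and at 6.27, 6.32, 6.55 and 6.53 in Lzlo. It was at 5.92, 6.4, 6.33 and 6.02 in Dzhi and at 6.27, 5.17, 5.98 and 5.39 in Dzlo. The zones overlapped, and the difference was 0.74 ± 0.17 (SE, adjusted p = 0.165, limma). Fdps makes farnesyl diphosphate for sterol synthesis, and Psme2 encodes a subunit of the proteasome activator.

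For Myc the most alike were Dcaf1 (0.88), Prmt3 (0.86), Sqle (0.82), Id2 (0.81) and Rttn (0.80). Prmt3 methylates a ribosomal protein, Sqle is an enzyme of cholesterol synthesis, and Id2 blocks other helix-loop-helix factors. Id2 differed between zones by 0.81 ± 0.23 (SE, adjusted p = 0.372, limma). The lowest r were those of Cpxm1 (-0.88), Clmp (-0.87), Dnm3os (-0.86), Adarb1 (-0.86) and L1cam (-0.84). The genes most like Tfap4 were Grasp, Abhd14a, Cmip, Svop and Atp5g1, with r of 0.82 to 0.88. For Max they were Echdc3, Parp3, Sh3bgrl2, Coasy and St6galnac4, with r of 0.78 to 0.81.

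For Zbtb17 the most alike were Slc7a13 (0.92), Hp (0.90), S1pr4 (0.88), Rpusd4 (0.88) and Dmap1 (0.88). By Spearman rho they were at 0.76, 0.83, 0.54, 0.71 and 0.61. Hp encodes haptoglobin, which neutrophil granules also hold. Zbtb17 and the neutrophil, myeloid and natural killer cell lists shared their 2 highest arrays, both from experiment D.

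**Figure D4:**
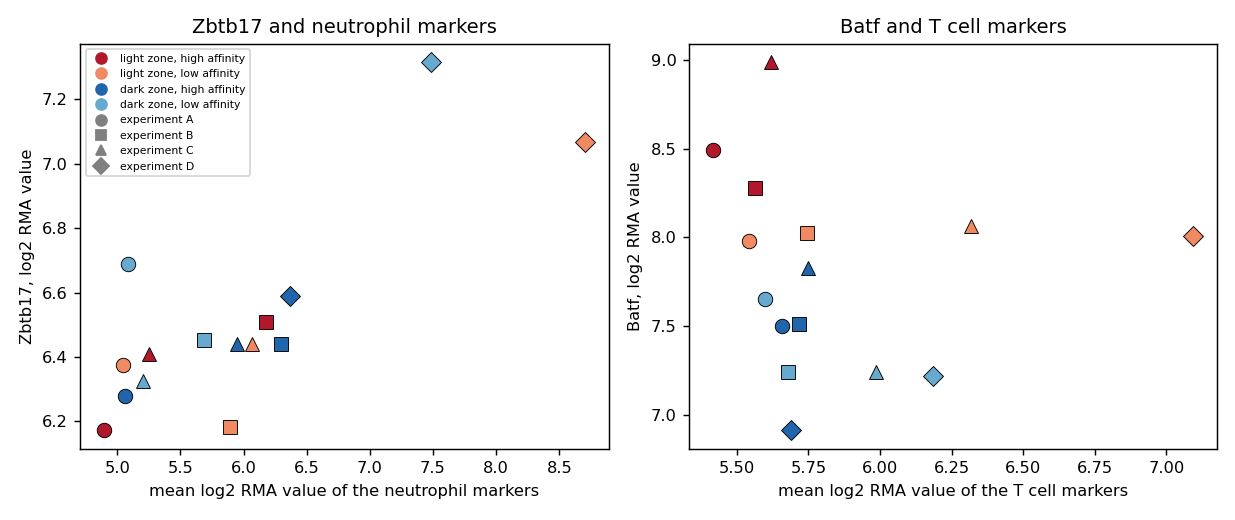
Left, Zbtb17 against the mean level of 14 neutrophil markers, and right, Batf against the mean level of 15 T cell markers, log2 RMA values per array. The 2 highest Zbtb17 values, 7.07 and 7.31, are on the low-affinity arrays of experiment D, and the 3 Lzhi arrays combine high Batf with T cell levels of 5.42 to 5.62.

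T cells also express Batf, so 15 of 17 T cell markers that were measured are set beside it. Their mean level was 5.42 to 5.62 in Lzhi, 5.54 to 7.09 in Lzlo, 5.66 to 5.75 in Dzhi and 5.60 to 6.18 in Dzlo. The highest level was on the Lzlo array of experiment D, where Batf was at 8.01, and no Lzhi array was above 5.62. Between zones 10 of the 15 markers were above 0, with a median of 0.07, and 0 passed. An unadjusted p under 0.05 (limma) was found for 3 of the 15 (20%, against 4.38% of all genes). Without the pair of outlying arrays 7 were above 0, with a median of -0.02. The median was 0.28 among low-affinity cells, or 0.03 without that pair, and -0.09 among high-affinity cells. The part of T cells in the Batf values was not tested. Between affinities in the light zone 14 of the 15 markers were below 0, with a median difference of -0.65. This median was -0.17 without the Lzlo array of experiment D (12 of 15 below 0), and within experiments A, B and C it was 0.01, -0.15 and -0.10.

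The MYC network was read from a list of 14 genes, all measured, which pair with MAX or its relative MLX or bind MYC. Myc and Zbtb17 are among them. Between zones 0 of the 14 passed (1, Myc, at an unadjusted p under 0.05, as had 873 of all genes, or 4.38%) and 8 were above 0, with a median of 0.01 against -0.01 over all genes. Besides Myc the sizes of t were largest for Mxd4, a MAX partner that opposes MYC, at 0.39 ± 0.28 (SE), and for Mlx at -0.31 ± 0.19 and Mlxip at -0.19 ± 0.21. Mlxip turned to 0.02 without the Lzhi array of experiment C. With affinity in the light zone 4 were above 0, or 6 without the Lzlo array of experiment D, and Mxd4 was at -0.93 ± 0.42 and Mlxip at -0.89 ± 0.31 (adjusted p = 1 each, limma). Of 11 measured genes for MYC protein turnover 8 were below 0 between zones and 0 passed (4 at an unadjusted p under 0.05, or 36.36%, against 4.38% of all genes). Over all genes 48% were above 0. The median of these 11 was -0.13. It was -0.07 without the Lzhi array of experiment C (6 of 11 below 0) and -0.28 without that of A (9 of 11). Among these 11 Aurka, a mitotic kinase that stabilises MYCN, was at -0.57 ± 0.19 and Usp28, which removes ubiquitin from MYC, at -0.47 ± 0.17, or -0.27 without the Lzhi array of experiment C. In the other direction Usp36, a nucleolar enzyme that also removes ubiquitin from MYC, was at 0.28 ± 0.12 and Fbxw7, which marks MYC for breakdown, at 0.42 ± 0.34.

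The MYC-induced list held 50 genes of ribosome production, translation, nucleotide and polyamine synthesis, glycolysis and growth, of which 47 were measured. None passed in any comparison (limma), and 3 had an unadjusted p under 0.05 between zones (6.38%, against 4.38% of all genes) and 3 with affinity in the light zone (6.38%, against 4%). With affinity over both zones 9 of 47 had one (19.15%, against 4.3%). There 41 of 47 were above 0, against 50.3% of all genes, with a median of 0.27. That median was 0.17 to 0.30 in fits that left out 1 array. Between zones 38 of 47 were above 0, with a median difference of 0.14, against -0.01 and 48% above 0 over all genes. Ccnd2, a cyclin that carries cells into the cycle, was at 0.72 ± 0.21 (SE, adjusted p = 0.4, limma), and Tfrc, the transferrin receptor, at 0.84 ± 0.27 (adjusted p = 0.536). Ppat and Tfb2m were at -0.27 ± 0.24 and -0.20 ± 0.20, and Ppat was at -0.08 without the Lzlo array of experiment D. The counts were 40 of 47 among high-affinity cells, with a median of 0.23, and 28 of 47 among low-affinity cells, with a median of 0.03. The median among high-affinity cells was 0.14 without the Dzhi array of experiment D, which has no Lzhi partner (35 of 47), and the median among low-affinity cells was -0.01 without the pair of outlying arrays of experiment D. Within experiments A, B and C the medians among high-affinity cells were 0.26, 0.08 and 0.02, and within A, B, C and D those among low-affinity cells were -0.01, 0.07, 0.04 and 0.08. Whether the 2 affinities differed in this was not tested.

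With affinity in the light zone 39 of 47 MYC-induced genes were above 0, with a median of 0.33 against -3e-04 over all genes, and 0 passed. The mean level of the list was 9.24, 9.17 and 9.22 in Lzhi, and 8.89, 8.77, 8.64 and 9.04 in Lzlo. All Lzhi arrays lay above all Lzlo arrays, and this held singly for 7 of the 47 genes, an order that 2.26% of all genes showed. Within experiments 45, 44 and 32 of 47 genes were higher in Lzhi in A, B and C, with medians of 0.32, 0.42 and 0.12. Without the pair of outlying arrays of experiment D 44 of 47 were above 0, with a median of 0.31. In experiment C the list was higher in Lzhi although Myc itself was at 8.0 there, against 8.74 in Lzlo. Of the genes whose E-boxes are shown above, the 9 of the list had a positive difference, of 0.14 to 0.72, and Max was at -0.05.

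Tfrc was at 9.32, 9.01 and 9.97 in Lzhi and at 8.86, 8.45, 7.46 and 8.78 in Lzlo, and Ppat, an enzyme of purine synthesis, was at 10.17, 10.21 and 9.67 in Lzhi and at 9.88, 9.43, 8.0 and 9.19 in Lzlo. The lowest value of both was that of Lzlo in experiment D. The differences were 1.05 ± 0.39 for Tfrc and 0.89 ± 0.36 for Ppat (SE, adjusted p = 1 each, limma), and without that array they were 0.74 and 0.52. Slc3a2 and Rrp12 were at -0.26 ± 0.24 and -0.21 ± 0.26, and at -0.15 and 0.06 without it. In the dark zone 37 of 47 were above 0, with a median of 0.15. It was 0.08 without the Dzlo array of experiment D (32 of 47), 0.29 without the Dzhi array of D and 0.24 without the Dzlo array of C. The counts within experiments A, B, C and D were 24, 43, 23 and 22 of 47.

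Of 12 genes repressed by MYC and MIZ1, 11 were measured and none passed in any comparison (limma), while 1 had an unadjusted p under 0.05 between zones (9.09%, against 4.38% of all genes) and 2 with affinity in the light zone (18.18%, against 4%). With affinity in the light zone 10 of 11 were below 0, with a median of -0.36. Without the pair of outlying arrays of experiment D 8 were below 0, with a median of -0.23, and the median was -0.22 without the Lzhi array of experiment C and -0.18 without the Lzlo array of A. Within experiments A, B and C it was -0.21, -0.05 and -0.09. Btg2, which restrains division, was at -0.79 ± 0.27 (SE), Bcl2, which blocks cell death, at -0.54 ± 0.23 and Cdkn1c at 0.34 ± 0.22. Bcl2 was at -0.33 without the Lzlo array of experiment D, and Cdkn1c at 0.0023 without the Lzhi array of C. In the same comparison 13 of 14 neutrophil markers were below 0 (median -0.98), or 9 of 14 (median -0.03) without the Lzlo array of experiment D, beside the T cell markers given above. Within experiments A, B and C the neutrophil medians were -0.06, 0.12 and -0.45, and the part of such cells in these lists was not tested. Between zones 7 of the 11 were above 0, with a median of 0.06, or 0.03 without the pair of outlying arrays of experiment D.

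The inputs to Myc were taken as 24 receptors and signalling genes, of which 21 were measured. They belong to CD40, the B cell receptor and cytokines, and Notch2 is also among them. Cd40, the receptor of T cell help, was at 8.97, 8.64 and 8.79 in Lzhi and at 8.98, 8.72, 9.58 and 9.06 in Lzlo. It was at 8.11, 8.09, 8.55 and 8.22 in Dzhi and at 8.27, 8.02, 8.26 and 8.79 in Dzlo. The zones overlapped through the Dzlo array of experiment C, at 8.79. The difference was 0.65 ± 0.14 (SE, adjusted p = 0.136, limma). Between zones 14 of 21 were above 0 and 0 passed (4 at an unadjusted p under 0.05, or 19.05%, against 4.38% of all genes), with a median of 0.10. The median was 0.04 without the Dzhi array of experiment A and 0.16 without the Lzlo array of B. With affinity in the light zone 20 of 21 were below 0, with a median of -0.24, while 49.9% of all genes were above 0. Without the pair of outlying arrays of experiment D 17 of 21 were below 0, with a median of -0.17. Notch2, a receptor of marginal zone B cells, was at -1.02 ± 0.23 and Syk, a kinase of the B cell receptor, at -0.74 ± 0.24 (adjusted p = 1 each, limma). Notch2 was at 5.87, 5.98 and 5.61 in Lzhi and at 6.54, 6.31, 7.20 and 7.31 in Lzlo. With affinity in the dark zone 18 of 21 inputs were below 0, with a median of -0.14. Without the pair of outlying arrays 13 of 21 were, with a median of -0.07. Within experiments A, B, C and D the dark zone medians were -0.34, 0.01, 0.04 and -0.40.

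**Figure D5:**
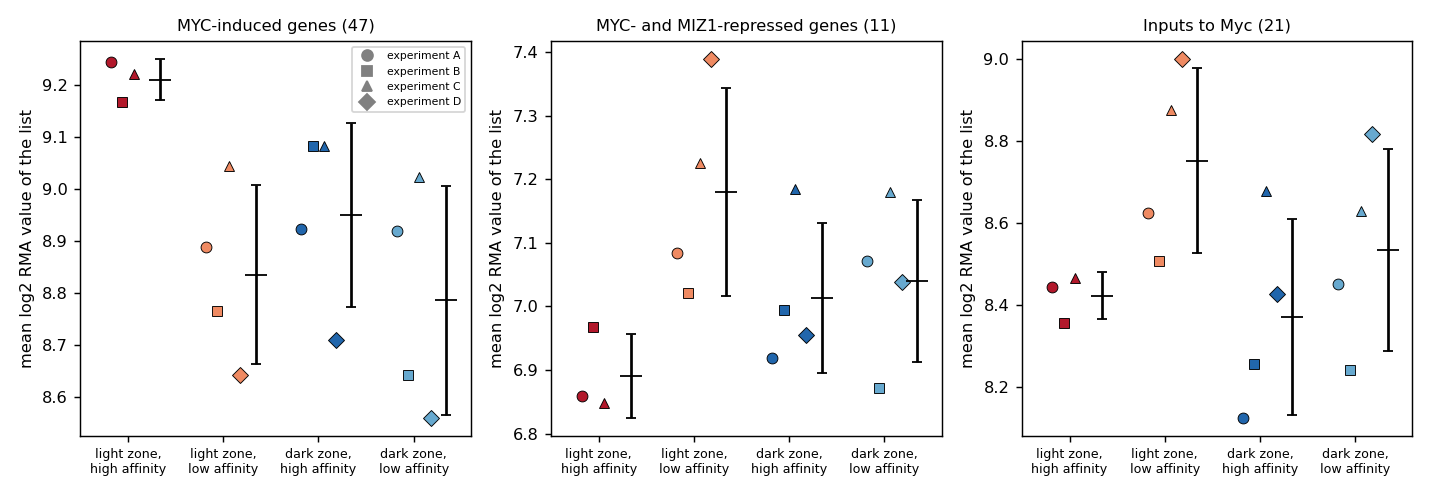
Mean log2 RMA value (vertical axes) of the MYC-induced, the MYC- and MIZ1-repressed and the input lists on each array by group, with group mean and SD. The Lzhi arrays of the MYC-induced list, 9.17 to 9.24, sit above all others, and the repressed and input lists are highest on the Lzlo array of experiment D.

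The list of the relatives and partners of BATF, which includes Batf itself, held 13 genes, all measured. Between zones Batf alone passed, 7 of 13 were above 0, and the median was 0.04. Irf4 is given above. Atf3, a stress-induced relative, was at -0.35 ± 0.14 (SE) in the comparison of Lzhi with Dzhi and at -0.38 ± 0.13 in that of Lzlo with Dzlo (adjusted p = 0.999 and 0.986, limma). With affinity in the light zone 6 of 13 were above 0, or 11 without the pair of outlying arrays of experiment D, and Irf4 was at 0.51 ± 0.25, beside 0.57 for Batf, while Irf8 was at -0.37 ± 0.32. Of 14 measured helix-loop-helix relatives and partners of TFAP4, 8 were above 0 between zones and 0 passed (1, Id2, at an unadjusted p under 0.05, against 4.38% of all genes). Id2 had the largest difference, given above, and Tcf3, which encodes E2A, was at -0.29 ± 0.35. With affinity in the light zone Arntl, a clock gene, was at -0.68 ± 0.17 (adjusted p = 1).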

How the data were processed

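RNA from 15 samples was amplified and hybridised singly to whole-transcript arrays, per the labels' protocols. The values that the authors deposited are log2 and come from RMA, a method of background correction, quantile normalization and probe summary, and the genome build is mm8, both per the submitters' processing notes. RMA compresses differences of dim probe sets, and no detection calls were used, so no gene was called absent. The number of arrays limits the precision.

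Of 28853 probe sets 21789 had exactly 1 gene in the platform annotation, 1621 had several and 5443 none. Of the first, 21698 matched the reference table by Entrez ID. For 999 genes with more than 1 probe set the brightest on average stood for the gene, and 19938 genes were tested. Limma 3.58.1 in R 4.3.3 estimated 4 group means in a joint fit (11 residual degrees of freedom), with Benjamini-Hochberg adjustment inside each comparison. Exact permutation tests were run on single genes, and 100000 permutations were used for correlations. Figures were drawn with matplotlib 3.10.9.

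The genes and lists were chosen with earlier results of these data known. Genes named beside the 5 were those with the highest r (for Myc also the lowest), list genes that passed and, where none did in a list and comparison, up to 2 per direction by the size of t. Genes with E-boxes shown were taken by motif, and where several E-boxes were found the nearest to the start.

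Groups come from sample titles. The experiment code pairs arrays across groups: the deviations of arrays that share a code had an average correlation of 0.29 (21 pairs, 16 above 0.1), against -0.08 over 63 pairs with different codes. The codes take 5 forms, merged into 4. Alternatives varied the scaling, which genes and arrays were used, the model of the variance, weights of arrays, the block and the threshold. The alternatives for the list medians and for the other genes of the lists were chosen after seeing the data. On simulated data with 200 changed genes among 19938, 76% of those changed by 1 on the log2 scale were recovered between zones, and 65% for affinity in the light zone. These shares belong to that simulated setting. Whether they hold for the real arrays, where 0 genes passed between Lzhi and Lzlo, was not tested.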

Additional observations from a re-analysis of the deposited data

Results flagged for a closer look

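Batf in Dzlo was at 7.65 on the array of experiment A, and the nearest of the other 3 arrays was at 7.24. This gap was 0.945 of the range of the group, above the critical value of 0.829 for 4 arrays. Of 15 groups of 4 arrays examined, 1 met this rule, and chance gives about 1 in 20. The call of Batf between zones held without that array, which is 1 of the 15 fits that left out 1 array given above.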

How the results depend on the processing

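Of 31 genes that passed between zones (3 and 2 within high and within low affinity), the counts were 49, 5 and 11 after repeated quantile normalization, 68, 5 and 16 with array weights, and 49, 5 and 13 at an adjusted p under 0.10. With a replicate block by merged experiment code they were 90, 11 and 30, by title number 83, 7 and 18, and with codes as written 1 and 11 within affinities. Within affinities they were 7 and 1 with every probe set, 6 and 4 without experiment D, and 1 and 0 from the groups of the comparison alone. Among low-affinity cells 8 passed with probe sets averaged and 6 with a trended, robust fit, and among high-affinity cells 5 without the low-affinity arrays of D. For affinity the counts of 0 became 1 (dark zone) and 2 (both zones) after repeated quantile normalization and 3 (dark zone) with every probe set. Over both zones 1 gene passed with array weights, with the title-number block and without the low-affinity arrays of D. Leaving out 1 array gave 18 to 37, 1 to 4 and 0 to 4 genes.

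Batf lost its zone call (0.92) with codes as written, and kept it under the other alternatives. The exact tests of single genes, unadjusted, put Myc between zones (0.70) and Batf with affinity in the light zone (0.57) past 0.05. In the light zone Lzhi minus Lzlo was 0.72 in A and -0.75 in C for Myc, 0.25 in B and 0.92 in C for Batf, and 0.33 in B for Zbtb17.

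Signs turned for values near 0, and the cause was not tested. Tfap4 between zones was -0.0415, with -0.0036 and -0.0794 within affinities, under array weights, and -0.0133 and, among low-affinity cells, -0.081 without D (-0.081 also without its low-affinity arrays). With affinity in the dark zone it was -0.0048 under array weights, and its interaction was -0.019 after quantile normalization. Zbtb17 with affinity in the light zone was 0.0219 under array weights and 0.0305 without D or its low-affinity arrays. Between zones among high-affinity cells it was 0.0729, 0.0564 and 0.0935 with the 3 blocks (code, title number, code as written). Max among low-affinity cells was -0.0122 with codes as written. The Myc interaction was 0.0045 with arrays centred, 0.2357 under array weights and 0.0542 with the title-number block.

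Leaving out 1 array gave, for Tfap4, -0.0061 to 0.1942 between zones, -0.097 to 0.1903 and -0.0523 to 0.2988 within high and low affinity, -0.1231 to 0.2006 with affinity in the light zone, -0.063 to 0.2727 in the dark zone, -0.0322 to 0.1681 over both and -0.2093 to 0.1419 for the interaction. For Zbtb17 it gave -0.1465 to 0.0218 and -0.3626 to 0.0278 between zones within high and low affinity, -0.2652 to 0.0305 with affinity in the light zone and -0.1019 to 0.2884 for the interaction. Batf with affinity in the dark zone ranged from -0.0292 to 0.2768, Max among low-affinity cells from -0.0225 to 0.0434 and the Myc interaction from -0.227 to 0.3221.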
